A study of Mus musculus with 13 samples.

Results

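Presumptive intervertebral disc (IVD) and presumptive vertebrae of mouse embryos lacking Tgfbr2 in Col2a-expressing cells were compared on 7 of the 13 arrays of the series. The 7 arrays were selected by their labels alone: 4 of mutant IVD and 3 of mutant vertebrae, with all 45037 probe sets that are not array controls. Both tissues were cut by laser capture from the lumbar spine at E13.5, in mid-gestation. The mutant mice were Cre+;Tgfbr2lox/lox, which the label of the mutant vertebrae spells Cre+;Tgrbr2lox.lox, with Cre under the Col2a promoter (Col2aCre). The 6 control arrays, 3 of each tissue, came from Cre-;Tgfbr2lox/wt mice. They show which tissue differences were present in control embryos, and they also enter the estimate of the spread. Deletion is limited to cells in which the Col2a promoter was active, so other cells of a captured piece keep the receptor. Arrays of 1 group are biological replicates, and whether mutant IVD and mutant vertebrae of the same number share an embryo or litter is not stated.

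At this stage the sclerotome, the part of the somite that forms the axial skeleton, has separated into condensations that become cartilage of the vertebrae and condensations that become the annulus fibrosus, the fibrous ring of the IVD. TGF-β ligands bind the type II receptor Tgfbr2, which recruits and phosphorylates a type I receptor, and Smad proteins then carry the signal to the nucleus. Transcription factors such as Sox9 and Sox5 drive cartilage matrix genes, whereas Pax1 and Pax9 mark the sclerotome that gives rise to the IVD.

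For 4 genes that stand for the matrix and signalling groups described below, the 250 bases before the RefSeq start site (build GRCm38.p6) are shown 5′ to 3′ on the strand of the gene. Tgfbi and Fmod encode fibrous matrix proteins of the IVD side. Matn1 encodes a cartilage matrix protein and Ihh a signal of maturing chondrocytes, both of the vertebral side. Capitals mark CAGAC or its reverse complement GTCTG, the core of the Smad-binding element, and AACAAT or ATTGTT, a core bound by SOX proteins.
Tgfbi, chr13:56609336-56609585, plus strand: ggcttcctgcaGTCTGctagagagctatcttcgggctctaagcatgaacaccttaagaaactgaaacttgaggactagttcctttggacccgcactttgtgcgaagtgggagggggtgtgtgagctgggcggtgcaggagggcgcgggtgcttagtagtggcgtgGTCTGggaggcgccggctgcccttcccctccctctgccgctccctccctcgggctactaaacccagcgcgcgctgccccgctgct
Fmod, chr1:134037004-134037253, plus strand: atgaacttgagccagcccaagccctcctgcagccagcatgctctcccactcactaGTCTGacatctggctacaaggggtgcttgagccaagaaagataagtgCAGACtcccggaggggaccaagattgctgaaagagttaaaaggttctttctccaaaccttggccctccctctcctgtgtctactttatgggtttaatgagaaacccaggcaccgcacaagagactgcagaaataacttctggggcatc
Matn1, chr4:130944135-130944384, plus strand: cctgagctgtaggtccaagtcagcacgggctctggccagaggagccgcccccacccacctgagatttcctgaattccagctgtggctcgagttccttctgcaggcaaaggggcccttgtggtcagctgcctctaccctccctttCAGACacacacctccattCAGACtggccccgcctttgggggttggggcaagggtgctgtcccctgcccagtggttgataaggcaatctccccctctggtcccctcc
Ihh, chr1:74951673-74951922, minus strand: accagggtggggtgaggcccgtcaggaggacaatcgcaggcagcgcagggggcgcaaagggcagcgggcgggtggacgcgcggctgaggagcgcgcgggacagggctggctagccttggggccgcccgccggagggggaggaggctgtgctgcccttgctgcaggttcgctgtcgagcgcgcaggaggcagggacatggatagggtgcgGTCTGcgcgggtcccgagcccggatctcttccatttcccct
The Smad core occurred 2 times in the windows of Tgfbi, Fmod and Matn1 and 1 time in that of Ihh, and the SOX core in none of these 4 windows. Genes of the IVD side and of the vertebral side thus both carried the Smad core. Among all 32851 RefSeq windows of this length, 42.2% held the Smad core and 9.42% the SOX core on either strand. Of 12 genes looked up, 8 had an entry, and the other 4 entries were Prmt8 with 1 Smad core and Pfkp, Cacna2d3 and Cobll1 with none.

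Deposited values are on a log2 scale on which every probe set has been centred to a median of 0, so they hold differences between arrays and no level, and a value of 1 is a signal 2-fold above that median. Precision is limited by how many arrays there are. In a bulk sample, fewer cells of a type and less RNA per cell cannot be told apart.

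Tgfbr2 itself was measured by 3 probe sets. Their mean was 0.48, 0.33, 0.15 and 0.06 in mutant IVD 1 to 4 and -0.60, -0.23 and -0.04 in mutant vertebrae 1 to 3. In the control arrays it was 0.24, 0.29 and -0.11 in IVD and 0.03, -0.01 and -0.18 in vertebrae. No mutant IVD array lay below the lowest control IVD array. The floxed segment is exon 2, and the position of the probe sets in the transcript is not given in the sources used here, so these values do not measure the deletion itself. Between the mutant tissues the difference was 0.54 (standard error 0.17, adjusted p = 0.337), and the 3 probe sets ranged from -0.01 to 1.51.

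Arrays of 1 group were not alike, and 1 array went against its label. Taking 313 probe sets chosen in the control arrays alone for a higher signal in IVD, as described below, the median difference was 2.0, 1.76 and 1.5 from the mean of the mutant vertebrae in mutant IVD 1, 2 and 4, but -0.05 in the array labelled mutant IVD 3. For the 147 probe sets lower in control IVD the medians were -1.38, -1.28 and -1.54 in mutant IVD 1, 2 and 4 and -0.59 in mutant IVD 3. Mutant vertebrae 1 to 3 were themselves at -0.41, -0.04 and 0.45 for the 313 and at -0.42, 0.40 and 0.01 for the 147. By these probe sets the array labelled mutant IVD 3 lay with the mutant vertebrae or between the tissues. For Pax1, Pax9, Tgfb3 and Gdf5, genes of the IVD, its value was -1.0, -0.83, -1.46 and -1.07, against at least 1.25, 0.65, 0.66 and 0.76 in each of the other 3 IVD arrays. Neuronal genes, 25 in number, averaged 2.54 in mutant IVD 3, while no other mutant array exceeded 0.61. Fetal liver genes (12) averaged 2.24 and 3.18 in mutant IVD 3 and 4 and no more than 0.09 in the rest. Skeletal muscle genes (22) averaged 1.73 in mutant IVD 4 and no more than 0.41 in the rest. Notochord genes averaged 0.94 in mutant vertebrae 3 and no more than 0.14 in the rest. Xist, transcribed from the inactive X chromosome, stood at 1.51 and 0.87 in mutant vertebrae 3 and mutant IVD 3 but at -5.83 or lower in the other 5, and the mean of 4 Y-linked genes was -0.06 and -0.01 in these arrays against 2.12 to 3.02. In the 6 control arrays Xist ran from -0.04 to 1.81 and the Y-linked gene Kdm5d from -0.22 to -0.04, near those 2 arrays and apart from the other 5, so the mutant and control groups also differ in the sex of the embryos. When that Y-linked mean entered the fit as a covariate, limma called 3 probe sets between the mutant tissues and 0 for a change between genotypes. Values spread most in mutant vertebrae 1, with a standard deviation over probe sets of 0.743 against 0.349 to 0.479 in the other mutant arrays. The part of these neighbouring tissues in each result was not tested, and results are given with and without mutant IVD 3. The log2 ratio of 3-prime to 5-prime signal, a measure of RNA integrity, differed between the tissues by 0.224 for Gapdh and -0.235 for Actb (two-sided exact permutation tests, p = 0.743 and 0.629, where the smallest possible p is 0.0571). Single arrays differed by more. The Gapdh ratio was 1.14, 1.10 and 1.40 in mutant vertebrae 1, IVD 1 and IVD 4 and -0.19 to 0.09 in the rest. The Actb ratio ran from -0.80 in mutant IVD 1 to 0.72 in mutant IVD 4.

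**Figure D1:**
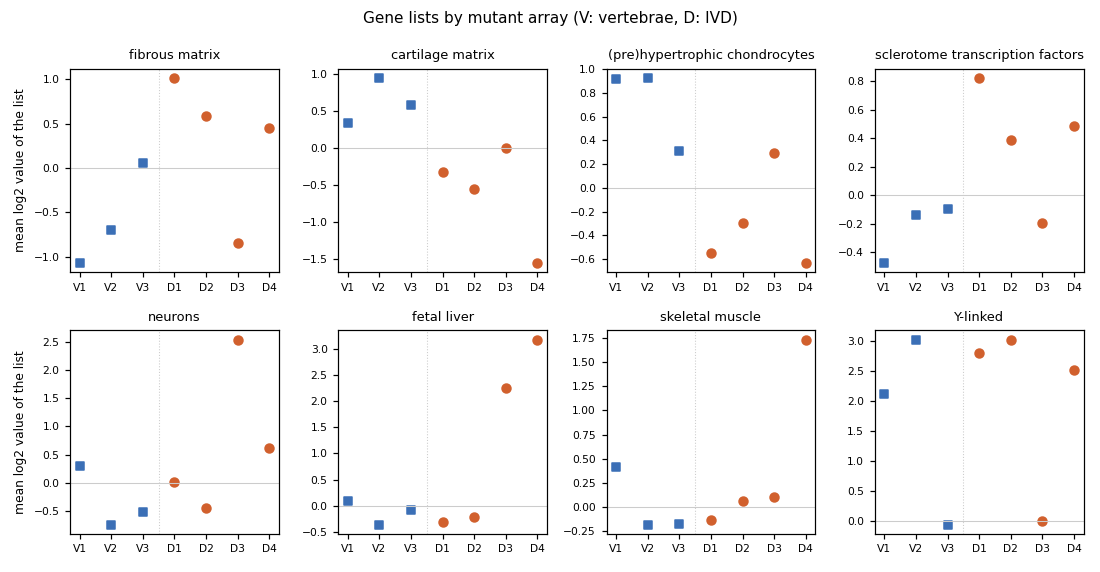
Mean log2 value of the genes of 8 lists (vertical axes, centred on the 13-array median) in each mutant array, with vertebrae as squares (V1 to V3) and IVD as circles (D1 to D4). Mutant IVD 3 (D3) has the lowest fibrous matrix mean of the IVD arrays (-0.85) and the highest neuronal mean (2.54), and liver genes are high in D3 (2.24) and D4 (3.18).

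In the fit over all 13 arrays, which includes all 7 mutant arrays, 7 probe sets (0.0155% of those tested) differed between mutant IVD and mutant vertebrae at an adjusted p under 0.05, 5 higher in IVD and 2 lower, and 5 of the 7 carry a gene name. None of the 7 passed in a fit of the 7 mutant arrays alone, where limma called 0 and the smallest adjusted p was 0.13, or with an unequal variance test. The named ones were Pfkp, Kirrel3, Prmt8 and Cacna2d3, all higher in IVD, and Cobll1, lower in IVD. All 7 had the same direction between the control tissues.

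Pfkp encodes the platelet form of phosphofructokinase, a control step of glycolysis. It was 0.80, 0.55, 0 and 0.31 in mutant IVD 1 to 4 and -1.75, -1.41 and -1.62 in mutant vertebrae 1 to 3. The groups did not overlap, and IVD was higher by 2.01 (standard error 0.21, adjusted p = 0.0203), against 1.61 between the control tissues. These values are of 1 of the 3 probe sets of Pfkp. The mean of the 3 differed by 1.24 and did not pass by limma over genes (adjusted p = 0.0628). Kirrel3, an adhesion molecule of the immunoglobulin superfamily, was 1.06, 0.97, 0.08 and 0.87 in IVD and -2.62, -1.83 and -1.57 in vertebrae. For this probe set, 1 of 3, the difference was 2.75 (standard error 0.30, adjusted p = 0.0203), against 1.22 in control. The test of that change between genotypes gave an unadjusted p of 0.00444 and did not pass after adjustment. The called probe sets were chosen for their mutant difference, which favours a small p for the change. The mean of the 3 probe sets of Kirrel3 differed by 1.42 (limma over genes, adjusted p = 0.00822).

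Prmt8, an arginine methyltransferase known mainly from the brain, was 1.2, 1.21, 0 and 0.64 in IVD and -1.02, -1.80 and -1.98 in vertebrae. IVD was higher by 2.36 (standard error 0.30, adjusted p = 0.0445), close in size to the 2.15 of the control tissues. Cacna2d3, an auxiliary subunit of voltage-gated calcium channels, was 1.52, 1.0, 0.32 and 0.73 in IVD and -2.59, -2.25 and -1.49 in vertebrae, a difference of 3.0 (standard error 0.39, adjusted p = 0.0445) against 1.91 in control. In all 4 of these probe sets mutant IVD 3, the array with the highest neuronal mean, was the lowest of the IVD arrays.

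Cobll1, an actin-binding protein of the cordon-bleu family, was -0.47, -1.53, -0.94 and -1.16 in IVD and 1.24, 2.39 and 1.67 in vertebrae. The groups did not overlap, and the difference was -2.79 (standard error 0.37, adjusted p = 0.0447), against -0.77 in control (unadjusted p = 0.00287 for the change between genotypes). The number of calls changed with single arrays. At an adjusted p under 0.05 limma called 0 probe sets without mutant IVD 1, 2 or 4 or mutant vertebrae 2, 3 without mutant vertebrae 3, 9 without mutant vertebrae 1 and 177 without mutant IVD 3. The 7 kept their direction in every one of these fits, which was fixed in advance because their groups did not overlap. With all 7 arrays, 3634 probe sets had an unadjusted p under 0.05.

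**Figure D2:**
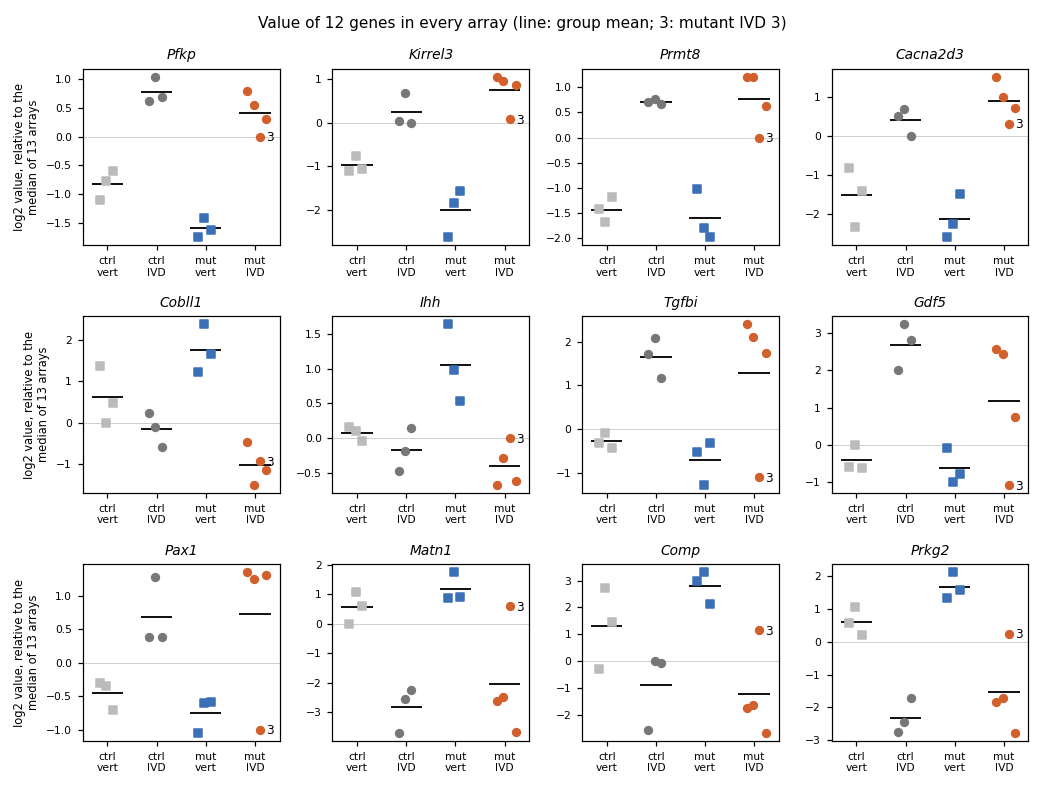
Log2 value of 12 genes (vertical axes, centred on the 13-array median) in each array of the 4 groups, with the group mean as a line and mutant IVD 3 marked by the digit 3. The 5 called probe sets separate the mutant tissues in all 7 arrays, whereas in Tgfbi, Gdf5, Pax1 and Matn1 mutant IVD 3 lies with or next to the vertebrae.

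Next in order of p, and higher in all 4 IVD arrays were Syt7, a calcium sensor of exocytosis (1.75, adjusted p = 0.0684), Fgf14, an intracellular regulator of sodium channels (2.59), Nalcn, a sodium leak channel (2.67), the tetraspanin Tspan13 (1.71) and Plxna2, a semaphorin receptor (1.51), the last 4 at an adjusted p of 0.069. Syt7 was 0.58, 0.34, 0.52 and 0.76 in IVD and -1.24, -0.65 and -1.73 in vertebrae, so the groups lay well apart. Between the control tissues the differences of Fgf14 and Nalcn were 1.5 and 2.42, whereas those of Tspan13 and Plxna2 were -0.28 and 0.15 (unadjusted p for the change 0.000198 and 0.00167). These probe sets too were chosen for their mutant difference, which favours a small p for the change. Lower in all 4 IVD arrays were Gm28523 (-1.61, adjusted p = 0.0544), the mitochondrial carrier Sfxn2 (-1.40), the ubiquitin ligase Trim68 (-1.30), the adhesion molecule Alcam (-1.71), the homeobox gene Alx1 (-1.76), all 4 at 0.069, and Terb1 (-1.31, adjusted p = 0.072). Terb1, a meiotic telomere protein, differed by only -0.02 between the control tissues. Alx1 was 1.82, 2.05 and 1.95 in vertebrae and -0.09, 0.00, 0.97 and -0.15 in IVD, where mutant IVD 3 was again the array closest to vertebrae. The values of this paragraph are of single probe sets. As the mean of all their probe sets, Syt7, Nalcn, Sfxn2 and Alx1 differed by 0.96, 2.25, -0.83 and -1.07. Gm28523 has 1 probe set and passed by limma over genes (adjusted p = 0.0243).

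The threshold of the study was a fold change of 2 or more with p under 0.05. The study took its p from ANOVA assuming unequal variance. Here the same cuts were applied to the p of limma before adjustment, unless another test is named. By limma, 803 probe sets were higher in mutant IVD (1.78% of those tested) and 361 lower (0.802%). With an unequal variance test, 349 probe sets were higher and 217 lower. Of 18212 named genes, taken as the mean of their probe sets, 253 were higher (1.39%) and 103 lower (0.566%), and 5 genes (0.0275%) passed at an adjusted p under 0.05. The 5 genes were Kirrel3, Cobll1, Prmt8, Cacna2d3 and Gm28523. All 4 IVD arrays lay above all 3 vertebrae arrays for 1538 probe sets (3.41%) and 745 genes (4.09%), and below them for 1446 probe sets (3.21%) and 538 genes (2.95%). With no tissue difference, 1 of the 35 arrangements of 4 against 3 arrays gives each of these separations. Non-overlap alone therefore does not show a tissue difference.

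With mutant IVD 3 left out, 177 probe sets (0.393%) passed at an adjusted p under 0.05, the 7 above among them. By gene, 86 were higher in mutant IVD (0.472%) and 29 lower (0.159%). Mutant IVD 3 was the IVD array closest to the vertebrae for 76 of the 86 and 26 of the 29. The genes were chosen with that array left out, which favours this outcome, so these counts are descriptions. Of the 86 genes, 85 had a positive difference between the control tissues and 42 at least 2-fold. Of the 29, 28 had a negative control difference and 11 at least 2-fold. Between the control tissues 47.8% of all genes were higher in IVD, and the share of all genes past 2-fold was not counted. The median difference of the 86 was 1.74 without mutant IVD 3, 1.39 with all 7 arrays and 0.98 in control, and that of the 29 was -1.68, -1.42 and -0.75. The control values come from other arrays, so most differences called between the mutant tissues had the same sign between the control tissues. Genes named from here on because they passed in this set were chosen after their values were seen.

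Genes higher in IVD in this set included matrix genes, sclerotome factors and signalling genes. Dpt, a small dermatan sulphate-binding matrix protein, was 2.78, 2.69, -1.98 and 2.85 in IVD and -1.77, -0.92 and -1.17 in vertebrae. Mutant IVD 3 lay below every vertebrae array, and the difference was 4.06 without it (adjusted p = 0.000365) and 2.88 with it (adjusted p = 0.371). Pamr1, a secreted protein of muscle regeneration, was 3.28, 1.52, -2.73 and 1.54 against -1.46, -2.23 and -1.93, a difference of 3.99 without mutant IVD 3 (adjusted p = 0.00872). Itgb8, an integrin chain that activates latent TGF-β, differed by 3.06 without mutant IVD 3 (adjusted p = 0.0489) and by 2.33 in control. The growth factor Artn, the transcription factor Creb5 and the Wnt receptor Fzd8 differed by 2.86, 2.32 and 1.99 in this set (adjusted p = 0.0323, 0.00321 and 0.0127).

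Genes lower in IVD in this set included C1qtnf3, a secreted protein of cartilage, at -2.27, -4.14, -1.56 and -3.77 in IVD and 0.12, 0.88 and 0.74 in vertebrae. The groups did not overlap, and the difference was -3.97 without mutant IVD 3 (adjusted p = 0.00674), -3.52 with it (0.0628) and -1.33 in control. Pygl, a glycogen phosphorylase, and Mia, a secreted protein of chondrocytes, differed by -3.12 and -1.69 (adjusted p = 0.0272 and 0.0127).

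To see which tissue differences of control embryos remained, probe sets were chosen in a fit of the 6 control arrays alone and then read in the 7 mutant arrays. The choice took 313 probe sets higher in control IVD (0.695%) and 147 lower (0.326%) at the same threshold. Of the 313, 308 were higher in mutant IVD as well, 207 by at least 2-fold and none lower by as much. Their median difference was 1.31 in control, where they were chosen, and 1.31 in mutant. Over all probe sets the median mutant difference was -0.02 and 46.7% were higher in IVD. Only 59 of the 313 (18.8%) had all IVD arrays above all vertebrae arrays, against 3.41% of all probe sets, and 232 (74.1%) did so without mutant IVD 3, when the median was 1.71 and 6.23% of all probe sets did so. Without mutant vertebrae 1 the median was 1.05, and without both arrays 1.48.

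Of the 147 probe sets lower in control IVD, 134 were lower in mutant IVD, 91 by at least 2-fold, with a median of -1.34 in control and -1.24 in mutant. The groups did not overlap for 63 (42.9%) against 3.21% of all probe sets, and for 94 (63.9%) without mutant IVD 3, against 5.19% of all probe sets. Another 2 of the 147 were higher in mutant IVD by at least 2-fold. These were Aplnr, the apelin receptor of endothelial cells, with 2.59 for the chosen probe set, and Chgb, a chromogranin of neuroendocrine cells, with 1.37, and both are named after their values were seen. Chgb was 4.11 in mutant IVD 3 and at most 1.19 in the other mutant arrays, but 2.45 and 3.29 in control vertebrae 2 and 3, and differed by 0.36 without that array. Aplnr was 2.41, -1.14, 2.14 and 1.84 in IVD and -1.29, -2.60 and 0.07 in vertebrae, so the groups overlapped. The change of Aplnr between genotypes had an unadjusted p of 0.00405 and did not pass after adjustment.

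In the reverse direction, 791 probe sets chosen as higher in IVD in the 7 mutant arrays alone (1.76%) had a median of 1.38 there and 0.52 in control, with 663 in the same direction. The 361 chosen as lower (0.802%) had a median of -1.28 in mutant and -0.74 in control, with 348 in the same direction. Between the control tissues 46.3% of all probe sets were higher in IVD. Chosen values tend to shrink in arrays that did not choose them, so these medians are descriptions. Across all probe sets the mutant and control differences had a Pearson correlation of 0.496, across probe sets that share arrays and are not independent.

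**Figure D3:**
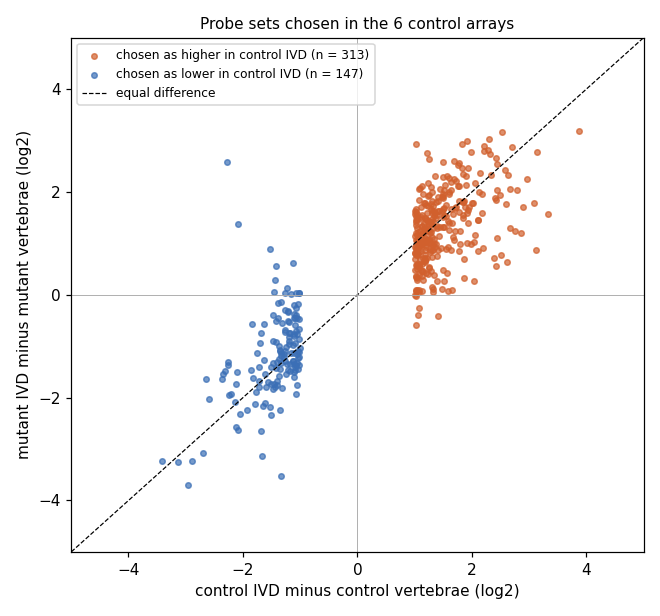
Difference between IVD and vertebrae on the log2 scale in control (horizontal axis) and mutant (vertical axis) for the probe sets chosen in the control arrays, each a point, with the dashed line at equal differences. Of the 313 chosen as higher 308 lie above 0 in mutant, and of the 147 chosen as lower 134 lie below 0.

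The test of whether the tissue difference itself changed with the genotype called 0 of 45037 probe sets by limma after adjustment. At an unadjusted p under 0.05 there were 619, a smaller share of the 45037 than the 0.05 that this cut would give with no change. Of the 619, 357 were more positive and 262 more negative in mutant. None of the differences between control and mutant given here passed this test after adjustment, which does not show that the differences were equal.

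The probe sets with the smallest p in the control arrays illustrate the range. Kcnt2, a potassium channel, and Gna14, a G protein subunit, differed by 3.34 and 2.43 in control and by 1.57 and 1.11 in mutant (unadjusted p for the change 0.0363 and 0.0395). Kcnt2 was 2.53, 1.23, -0.54 and 0.81 in mutant IVD and -0.43, -0.87 and -0.37 in mutant vertebrae, so mutant IVD 3 lay among the vertebrae. Gna14 is a gene that the study listed as lower in mutant IVD. Fhod3, a formin that organises actin, differed by 3.87 in control and 3.19 in mutant, and the probe set of Tgfbi by 2.44 and 2.54. On the vertebral side, Bmper, a secreted BMP modulator, differed by -2.59 and -2.03, and Unc5c, a netrin receptor, by -1.37 and -1.24. Of the 3 probe sets of Prkg2, the 2 among these differed by -3.13 and -2.89 in control and by -3.25 and -3.23 in mutant.

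Cartilage matrix genes were lower in mutant IVD than in mutant vertebrae for 22 of the 25 measured genes, with a median of -1.13 against 0.00 over all genes and -0.79 in control. Without mutant IVD 3 the median was -1.29 and without mutant IVD 4 it was -0.80. At the threshold of the study, 12 of the 25 were lower and none higher, beside 0.566% of all genes in that direction. For 10 of the 25 the groups did not overlap, beside 2.95% of all genes, and none passed at an adjusted p under 0.05 with all 7 arrays.

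Comp, a pentameric protein that links collagen fibrils, was -1.75, -1.63, 1.14 and -2.68 in IVD and 3.0, 3.3 and 2.14 in vertebrae. The groups did not overlap, and the difference was -4.04 (standard error 0.93, adjusted p = 0.189), or -4.83 without mutant IVD 3 (adjusted p = 0.0272), against -2.18 in control. Matn1, which forms filaments in cartilage matrix, was -2.62, -2.49, 0.60 and -3.69 in IVD and 0.88, 1.75 and 0.91 in vertebrae. Its difference was -3.23 (standard error 0.78, adjusted p = 0.213) and -4.11 without mutant IVD 3 (adjusted p = 0.00403), close to the -3.41 of control. Snorc, a chondrocyte membrane proteoglycan, differed by -2.09 (adjusted p = 0.115) and did so in all 4 IVD arrays, which were at -0.57 or lower against 0.52 or higher in vertebrae. Acan, the main proteoglycan of cartilage, differed by -1.13 (standard error 0.38, adjusted p = 0.389) with no overlap. Col2a1, the main cartilage collagen and the gene whose promoter drives Cre, differed by -0.63 (standard error 0.49, adjusted p = 0.802), within the spread of its arrays, which ran from -1.77 to 0.41 in IVD.

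Genes of prehypertrophic and hypertrophic chondrocytes, the maturing cartilage cells, were lower in IVD for 11 of 12, with a median of -1.04 against -0.55 in control. Of the 12, 6 were lower at the threshold of the study, beside 0.566% of all genes, and leaving out any array gave medians from -1.17 to -0.88. Ihh, the hedgehog ligand that controls chondrocyte maturation, was -0.67, -0.28, 0.00 and -0.61 in IVD and 1.64, 0.98 and 0.54 in vertebrae. It differed by -1.44 (standard error 0.25, adjusted p = 0.0643) and by -1.58 without mutant IVD 3 (adjusted p = 0.0279), against -0.25 in control, and the change between genotypes had an unadjusted p of 0.00713. The control difference of Ihh was within its standard error of 0.27. Prkg2, a cyclic GMP-dependent kinase needed for chondrocyte hypertrophy, was -1.83, -1.72, 0.24 and -2.78 in IVD and 1.32, 2.10 and 1.55 in vertebrae. The difference of -3.18 (standard error 0.55, adjusted p = 0.0643) became -3.77 without mutant IVD 3 (adjusted p = 0.00225) and was -2.90 in control. Panx3, a channel of hypertrophic chondrocytes and osteoblasts, differed by -1.95 (adjusted p = 0.117) and by -2.16 without mutant IVD 3 (adjusted p = 0.0425).

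Chondrocyte transcription factors had a median of -0.58, with 9 of 12 lower in IVD, and the median ran from -0.83 to -0.43 as arrays were left out. Foxa3, a forkhead factor of hypertrophic cartilage, differed by -1.89 (adjusted p = 0.117) and Mef2c, a MADS-box factor, by -1.14 (adjusted p = 0.173). Sox9, the factor that specifies chondrocytes, was -0.49, 0.13, 0.07 and -0.02 in IVD and 0.35, 0.73 and 0.14 in vertebrae, a difference of -0.49 (adjusted p = 0.603) close to the control value of -0.56. Its partner Sox5 differed by -0.67 (adjusted p = 0.671). Of 13 osteoblast and perichondrium genes 9 were lower, with a median of -0.11 that was 0.09 without mutant vertebrae 1. Among them Runx2, the factor that drives osteoblast formation, differed by -1.95 (adjusted p = 0.405) and by -2.60 without mutant IVD 3 (adjusted p = 0.0476), and Sp7, which acts after it, by -0.73 (adjusted p = 0.424).

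Fibrous matrix genes, were higher in IVD for 28 of 32, with a median of 0.88, 1.29 without mutant IVD 3 and 0.59 without mutant vertebrae 1, against 0.94 in control. Of the 32, 8 were higher at the threshold of the study, beside 1.39% of all genes. The groups overlapped in all 32. Mutant IVD 3 had a list mean of -0.85 against 0.45 to 1.02 in the other IVD arrays and -1.07 to 0.05 in vertebrae. Without that array 5 of the 32 passed at an adjusted p under 0.05, namely Dpt, Tgfbi, Col6a3, Emilin3 and Fbn2, beside 0.472% of all genes.

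Tgfbi, a matrix protein named for its induction by TGF-β, was 2.40, 2.10, -1.11 and 1.74 in mutant IVD and -0.53, -1.29 and -0.32 in mutant vertebrae. In 3 of 4 IVD arrays it was above every vertebrae array, and the difference was 1.99 (standard error 0.66, adjusted p = 0.386), 2.79 without mutant IVD 3 (adjusted p = 0.00329) and 1.93 in control. Fmod, a proteoglycan that guides collagen fibril assembly, was 1.07, 0.05, -1.86 and 0.47 in IVD and -2.80, -2.04 and -1.05 in vertebrae. It differed by 1.89 (adjusted p = 0.411) and by 2.49 without mutant IVD 3 (adjusted p = 0.0669). Col6a3 and Col6a1, chains of the microfibrillar collagen of type VI, differed by 1.79 and 0.92 (adjusted p = 0.493 and 0.802) and by 2.55 and 1.73 without mutant IVD 3 (0.0279 and 0.12).

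Emilin3, an elastin-associated protein, and Fbn2, a fibrillin, differed by 1.55 and 0.89, and by 2.04 and 1.32 without mutant IVD 3 (adjusted p = 0.0279 and 0.0476). Aspn and Ogn, small proteoglycans of fibrous tissue, differed by 1.32 and 1.34 in mutant and by 2.86 and 2.35 in control, with standard errors of 0.81 and 0.85 in mutant. The elastic fibre protein Mfap4 and the large proteoglycan Vcan differed by 1.31 and 0.88 (adjusted p = 0.299 and 0.42). Genes of tendon and ligament, which share fibrous matrix, had a median of 0.27 with 9 of 12 higher, from 0.11 without mutant vertebrae 2 to 0.39. Scx, the tendon factor scleraxis, differed by 0.26 (adjusted p = 0.797), Thbs4 by 0.70 and Egr1 by 0.73.

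Sclerotome transcription factors were higher in IVD for 13 of 13, with a median of 0.57 against 0.22 in control, between 0.47 and 0.77 as arrays were left out. Over all genes 50.1% were higher. Pax1 was 1.35, 1.25, -1.0 and 1.31 in IVD and -1.04, -0.60 and -0.58 in vertebrae. It differed by 1.47 (standard error 0.49, adjusted p = 0.386) and by 2.04 without mutant IVD 3 (adjusted p = 0.00526), against 1.13 in control. Pax9, its paralogue, differed by 0.90 and by 1.32 without mutant IVD 3 (adjusted p = 0.0323). Meox1, a homeobox factor of the sclerotome, lay higher in all 4 IVD arrays by 0.61 (adjusted p = 0.269).

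**Figure D4:**
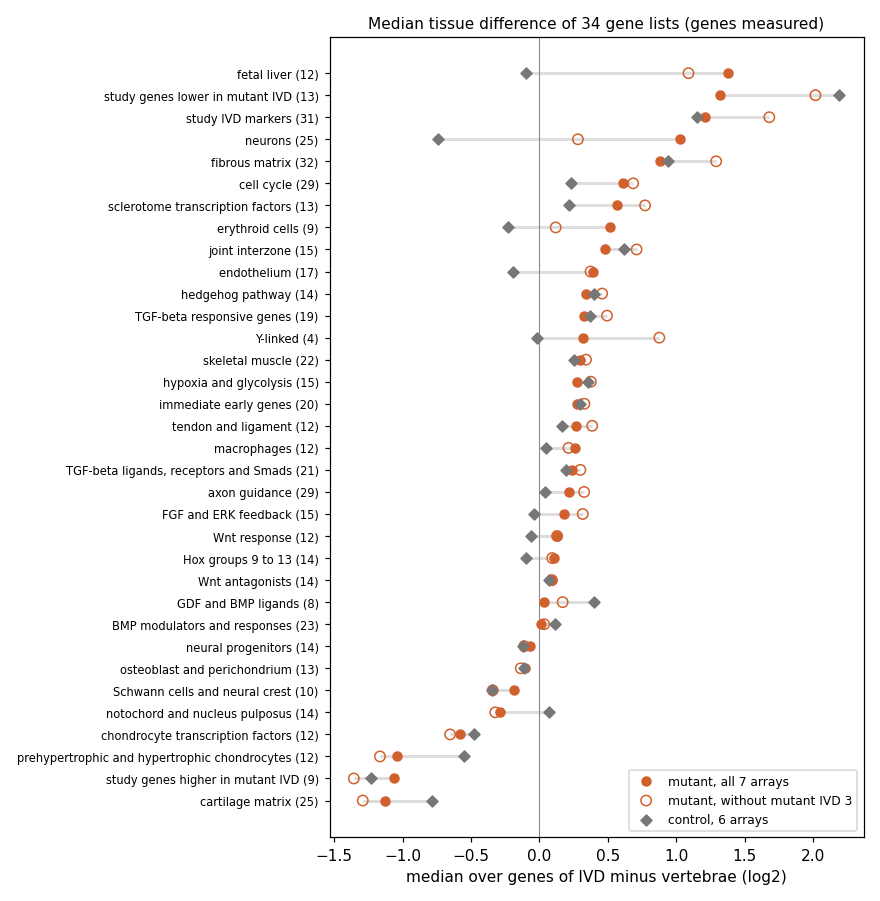
Median over the genes of each of 34 lists of the difference between IVD and vertebrae on the log2 scale, for the 7 mutant arrays (filled circles), without mutant IVD 3 (open circles) and in control (diamonds), with the number of genes measured in parentheses. Cartilage matrix is at -1.13 and hypertrophic chondrocyte genes at -1.04 in mutant, fibrous matrix is at 0.88, and the neuronal list moves from 1.03 to 0.28 without mutant IVD 3.

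Of the TGF-β pathway, 17 of 21 ligands, receptors, binding proteins and Smads were higher in mutant IVD, with a median of 0.24 against 0.20 in control, between 0.13 without mutant vertebrae 1 and 0.32. Ltbp2, which binds microfibrils and belongs to the latent TGF-β binding proteins, was 1.14, 0.66, 0.00 and 2.43 in IVD and -0.09, -0.75 and -0.86 in vertebrae. It differed by 1.62 with no overlap (adjusted p = 0.273) and by 1.98 without mutant IVD 3 (adjusted p = 0.0476). The ligand Tgfb3 was 1.84, 0.66, -1.46 and 0.85 in IVD and -1.80, -0.34 and -0.49 in vertebrae, a difference of 1.35 (standard error 0.60, adjusted p = 0.6) against 1.39 in control. It was 0.89 without mutant vertebrae 1 and 1.99 without mutant IVD 3. The activin receptors Acvr2a and Acvr1 differed by 0.62 and 0.39 (adjusted p = 0.294 and 0.591). The median over 19 TGF-β-responsive genes, 14 of them higher in IVD, was 0.33. It was 0.15 without mutant vertebrae 1 and 0.62 without mutant vertebrae 3, against 0.37 in control. Skil, a feedback inhibitor of Smads, differed by 0.86 (adjusted p = 0.318).

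Genes of the joint interzone, the cell layer that separates skeletal elements, had a median of 0.48 with 12 of 15 higher, from 0.22 without mutant IVD 1 to 0.71. The BMP-family ligand Gdf5 was 2.58, 2.45, -1.07 and 0.76 in mutant IVD and -0.07, -0.99 and -0.78 in mutant vertebrae. It differed by 1.79 (standard error 0.71, adjusted p = 0.506) and by 2.54 without mutant IVD 3 (adjusted p = 0.0425), against 3.08 in control, and the change had an unadjusted p of 0.24. Erg, an ETS factor of joint cartilage and endothelium, differed by 1.21 and by 1.51 without mutant IVD 3 (adjusted p = 0.0425). The Wnt ligands of this list went in opposite directions. Wnt9a lay higher in IVD by 0.74 (adjusted p = 0.267), and Wnt4 lower with a difference of -1.54 (adjusted p = 0.138) against -0.38 in control, and neither overlapped between the groups. The 2 probe sets of Wnt9a differed by -0.15 and 1.63.

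Among GDF and BMP ligands 4 of 8 were higher. Bmp7 differed by 0.77 (adjusted p = 0.387), by 1.02 without mutant IVD 3 (adjusted p = 0.0494), and Gdf10 by -1.50 (adjusted p = 0.414). Of 23 BMP modulators and response genes 13 were higher, with a median of 0.01, and the antagonist Nog differed by -0.72 (adjusted p = 0.318) against -0.05 in control. The mean of Bmper was the value given above, and without mutant IVD 3 it was -2.69 (adjusted p = 0.0136).

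Of 14 Wnt antagonists 9 were higher, with a median of 0.09 that was 0.43 without mutant vertebrae 3. Wif1, a secreted inhibitor that binds Wnt ligands, was 2.59, 2.14, -3.04 and 1.02 in IVD and -3.99, -0.75 and 0.00 in vertebrae. Its difference of 2.26 had a standard error of 1.22 (adjusted p = 0.69), and it was 1.06 without mutant vertebrae 1 and 3.50 without mutant IVD 3. Frzb, a secreted Frizzled-related protein of cartilage, lay lower in all 4 IVD arrays, with a difference of -1.18 (adjusted p = 0.122) against -0.28 in control. Shisa2, which retains Wnt and FGF receptors inside the cell, differed by 2.10 and by 2.71 without mutant IVD 3 (adjusted p = 0.0425). Of 12 Wnt response genes 7 were higher, with a median of 0.13 that was 0.04 without mutant IVD 4. Notum, a Wnt-inactivating enzyme, differed by 0.98 and Ccnd1, cyclin D1, by 0.85, which was 0.36 without mutant vertebrae 1.

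The hedgehog list had 12 of 14 higher and a median of 0.34. Gli3, a transcription factor of the pathway, differed by 0.66 (adjusted p = 0.417), while the ligand Ihh lay lower. Of 15 genes of FGF signalling and its feedback 10 were higher, with a median of 0.18 that was 0.05 without mutant vertebrae 1 and 0.32 without mutant IVD 3 or mutant vertebrae 3. Fgf18, a ligand that restrains chondrocyte growth, was 2.11, 0.72, -0.43 and 1.64 in IVD and -1.07, -0.99 and -0.07 in vertebrae, a difference of 1.72 and of 2.2 without mutant IVD 3 (adjusted p = 0.0363). The chondrocyte receptor Fgfr3 differed by -0.94 with no overlap (adjusted p = 0.334) and Fgfr4 by -0.49 (adjusted p = 0.318).

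Axon guidance genes were higher for 23 of 29, with a median of 0.22 against 0.04 in control, and 0.45 without mutant vertebrae 3. Ntn1, a netrin, and Sema3e, a semaphorin, differed by 1.16 and 1.05, and by 1.45 and 1.58 without mutant IVD 3 (adjusted p = 0.0285 and 0.00507), and the mean of the 4 probe sets of Plxna2 by 0.92 (adjusted p = 0.189). Of 14 Hox genes of groups 9 to 13, which set position along the trunk, 8 were higher, with a median of 0.11 that was 0.23 without mutant vertebrae 2. Hoxc10 was 1.79, 1.13, 0.87 and 1.0 in IVD and -1.19, 0.00 and 0.54 in vertebrae, a difference of 1.42 (adjusted p = 0.32) against -0.24 in control, and Hoxa11 differed by 0.59 (adjusted p = 0.401).

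Immediate early genes, which respond within minutes to stress and handling, were higher for 14 of 20, with a median of 0.28 that was 0.10 without mutant vertebrae 2. Dusp1, a phosphatase of this kind, was 1.03, 1.81, -0.81 and 0.91 in IVD and -2.28, -2.22 and -2.07 in vertebrae. The groups did not overlap, and it differed by 2.93 (standard error 0.53, adjusted p = 0.0697), by 3.44 without mutant IVD 3 (adjusted p = 0.00507) and by 1.84 in control. Jun differed by 2.02 (adjusted p = 0.173), with its lowest IVD array and its highest vertebrae array both at -0.21.

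Cell cycle genes were higher in mutant IVD for 29 of 29, with a median of 0.61 and of 0.23 in control. The median was 0.27 without mutant vertebrae 1, whose list mean of -1.14 lay below all other mutant arrays (-0.37 to 0.49), and none of the 29 reached the threshold of the study. Nusap1, a spindle protein, differed by 0.70 and Chek1, a checkpoint kinase, by 0.05. Of 15 genes of hypoxia and glycolysis 13 were higher, with a median of 0.28, Ndrg1 at 0.78 and Pfkfb3 at 0.30 among them.

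Lists of neighbouring tissues moved with single arrays. Neuronal genes were higher in mutant IVD for 24 of 25, with a median of 1.03 that was 0.28 without mutant IVD 3, and -0.74 in control. Cplx2, a regulator of vesicle release, was 0.81, 0.76, 0.56 and 1.10 in IVD and -0.14, -0.64 and -0.13 in vertebrae. It was thus not highest in mutant IVD 3, and differed by 1.11 (standard error 0.18, adjusted p = 0.0628) and by 1.19 without mutant IVD 3 (adjusted p = 0.0237). Nsg2, an endosomal protein of neurons, was 1.53, 1.15, 1.64 and 1.11 in IVD and at most 0.19 in vertebrae, a difference of 1.44 (adjusted p = 0.189). For 4 of the 25 genes the groups did not overlap, beside 4.09% of all genes. Neural progenitor genes had a median of -0.07, with Hes5 at -0.24 and Msi1 at -0.34.

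Fetal liver genes were higher for 12 of 12, with a median of 1.38 that was 0.72 without mutant IVD 4. Rbp4, a retinol carrier, differed by 1.89 and Apoh by 0.03, with standard errors of 1.08 and 0.58. Erythroid genes had a median of 0.52 that was 0.12 without mutant IVD 3 and 1.08 without mutant IVD 2, with Slc4a1 at 1.38 and Hbb-bh1 at 0.72. Skeletal muscle genes had a median of 0.30 that was -0.07 without mutant IVD 4, with Mylpf at 1.32 and Ttn at 0.14.

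Endothelial genes were higher for 17 of 17, with a median of 0.39 against -0.20 in control, from 0.23 without mutant vertebrae 2 to 0.59 without mutant IVD 2. The mean of the 2 probe sets of Aplnr differed by 1.72 (adjusted p = 0.43) against -1.47 in control. Of 12 macrophage genes 9 were higher, with a median of 0.26, Cx3cr1 at 0.52 and Csf1r at 0.86. Schwann cell and neural crest genes had a median of -0.18 with 3 of 10 higher, which was -0.34 without mutant IVD 3 and -0.04 without mutant vertebrae 1, and the cadherin Cdh19 differed by -1.40 (adjusted p = 0.329). Of 14 notochord and nucleus pulposus genes 4 were higher, with a median of -0.29 that was 0.07 without mutant vertebrae 3. Among them Foxa2, a factor of the notochord, differed by -0.90 and Grhl2 by -0.06. Xist differed by -1.01 with a standard error of 2.02, and the Y-linked genes Kdm5d and Uty by 0.14 and 0.35.

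The lists that the study drew from these arrays are not independent evidence of a direction. All 31 genes listed as IVD markers from the control tissues were higher in mutant IVD, with a median of 1.21 against 1.16 in control and 1.68 without mutant IVD 3, and 15 of them at the 2-fold threshold, which 1.39% of all genes passed. Coro2b, a coronin of the actin cytoskeleton, was 0.64, 0.00, 0.29 and -0.05 in IVD and -0.43, -1.18 and -0.60 in vertebrae, a difference of 0.96 (adjusted p = 0.267) against 1.0 in control. Without mutant IVD 3, 11 of the 31 passed at an adjusted p under 0.05, beside 0.472% of all genes. Beside those already given these were Lrig1, an inhibitor of growth factor receptors (2.13), Nfatc1, a calcium-dependent transcription factor (1.39), and the lipid kinase Cerk (1.68).

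The study listed genes as lower in mutant than in control IVD, selected from IVD-enriched genes. Of that list 13 genes were read here, which is not all of it. All 13 were higher in mutant IVD than in mutant vertebrae, with a median of 1.32 against 2.19 in control. The 9 genes listed as higher in mutant than in control IVD were selected from vertebrae-enriched genes. All 9 were lower in mutant IVD than in mutant vertebrae, with a median of -1.07 against -1.23 in control. Alcam, whose 5 probe sets had a mean difference of -1.37 (adjusted p = 0.112), was -0.40, 0.24, 0.05 and -0.39 in IVD and 0.71, 1.49 and 1.55 in vertebrae. Ebf1, a transcription factor, differed by -1.07 (adjusted p = 0.32) against -1.45 in control, and Dtna, a dystrobrevin of the dystrophin complex, by -1.12 and by -1.36 without mutant IVD 3 (adjusted p = 0.0127). For these lists the control tissue difference and the mutant IVD arrays both took part in the choice, and the values are descriptions.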

How the data were processed

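RNA of laser-captured lumbar tissue (50 ng per array, 2 cycles of amplification) was hybridised to Affymetrix mouse expression arrays. According to the methods of the study, the authors subtracted background and normalized with RMA in GeneSpring. The deposited values are log2 signals, centred so that the 13 arrays have a median of 0 in every probe set. Of 45101 probe sets, 64 array controls were left out. Of the rest 34945 carried 1 gene name in the platform annotation, 35 more were named from the study's gene tables, 932 had several names and 9125 none, giving 18212 genes. A gene was the mean of its probe sets, which did not always share a size or sign.

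A linear model of the 4 groups over all 13 arrays was fitted with limma 3.58.1 (lmFit and eBayes, R 4.3.3), with two-sided tests and Benjamini-Hochberg adjustment over all probe sets or all genes. The method was tested on simulated data. Named are the 10 probe sets per direction with the smallest p between the mutant tissues, 6 per direction in the control arrays, 2 genes per list and 19 genes of prior interest, and 7 of these probe sets have no name. Beside these, 24 features were chosen after their values were seen. Of all these, 2 genes are not reported here. Gene lists (34, with 491 of 518 genes measured) and the genes described were chosen with earlier results of these data known. Python 3.11.15 was used for summaries and figures.

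Alternatives were array weights, centring or quantile normalization of the arrays, a filter on variable probe sets, covariates for Y-linked, neuronal or fetal liver genes, a replicate block, the 7 mutant arrays alone, an unequal variance test, a robust fit and leaving out single arrays or pairs of arrays. The gene lists of the study were taken from its tables, and no value from them was used.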

Additional observations from a re-analysis of the deposited data

Results flagged for a closer look

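Gaps within the 4 mutant IVD arrays were tested with Dixon's criterion, which chance exceeds in about 1 of 20 groups, over 34 list means and 128 named values. It was exceeded by 3 list means and 11 named values, with 10 of the 14 falling on mutant IVD 3, 3 on IVD 4 and 1 on IVD 2. The named values include features chosen after their values were seen. Among these are Dpt and Fbn2, chosen because they passed once mutant IVD 3 was left out, so the counts are descriptions. Mutant IVD 3 stood apart from the other IVD arrays in the mean of the tendon and ligament list (-0.56), the mean of the Y-linked list (-0.0091), the probe set of Alx1 (0.97), Foxa3 (0), Pax1 (-1.0), Gli3 (-0.11), Fgfr4 (0.30), Xist (0.87), Dpt (-1.98) and Fbn2 (-0.77). In Alx1, Foxa3, Pax1, Gli3, Fgfr4, Dpt and Fbn2 it lay nearer to the mean of the mutant vertebrae than to that of the other IVD arrays. Mutant IVD 4 stood apart in the mean of the skeletal muscle list (1.73), in Mylpf (2.43) and in Ttn (1.31). Mutant IVD 2 stood apart in the chosen probe set of Aplnr (-1.14).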

How the results depend on the processing

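Every one of the 7 called probe sets kept its direction under every alternative run. Where arrays were only left out, this was fixed in advance, because the groups did not overlap. The number called at an adjusted p under 0.05 by limma varied. It was 3 with the mean of the Y-linked genes as a covariate, 55 with array weights, 2 with arrays centred on their medians, 44 among the more variable 50% of probe sets, 111 with the mean of the neuronal genes as a covariate, 59 without mutant IVD 3 and 4 and 78 without mutant IVD 3 and mutant vertebrae 1, the last chosen after seeing the data. It was 0 with a replicate block, a random replicate block, the 7 mutant arrays alone or an unequal variance test, and 0 to 177 as single arrays were left out. Whether the replicate numbers pair the mutant arrays is not stated. Deviations of arrays with the same number correlated at -0.40, 0.24 and -0.15, while Xist was high in both arrays numbered 3 and low in those numbered 1 and 2. Against 803 probe sets higher at the threshold of the study, there were 1331 with the neuronal covariate, 349 with unequal variance, 1220 without mutant IVD 3 and 4 and 441 to 1302 as single arrays were left out. Against 361 lower, there were 730 with array weights, 217 with unequal variance, 762 without mutant IVD 3 and mutant vertebrae 1 and 303 to 745. For a change between genotypes, 619 probe sets had an unadjusted p under 0.05. There were 2325 with array weights, 256 in the more variable 50% and 1127 with the neuronal covariate. Without mutant IVD 3 and mutant vertebrae 1 there were 1026, and 582 to 1025 as single arrays were left out. The cause was not tested.

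Among 128 named values, 10 uncalled ones changed sign. With the fetal liver covariate, Ttn was -0.13, Hbb-bh1 -0.072 and Apoh -0.47. With the neuronal covariate, Ttn was -0.00030, Hbb-bh1 -0.092 and Apoh -0.089. With the replicate block, Ttn was -0.19 and Apoh -0.18. Without mutant IVD 3 and 4, Ttn was -0.25, Slc4a1 -0.54, Hbb-bh1 -0.30, Apoh -0.38 and Chgb -0.21, and Hbb-bh1 was -0.21 without mutant IVD 3 and mutant vertebrae 1. Chek1 was -0.035 with array weights and -0.0094 after quantile normalization, and with the Y-linked covariate Kdm5d was -0.11 and Xist 0.045. As single arrays were left out, Grhl2 ran from -0.18 to 0.073, Chek1 from -0.073 to 0.16, Ttn from -0.19 to 0.40, Apoh from -0.18 to 0.23, Kdm5d from -0.37 to 0.60, Uty from -0.17 to 0.92 and Xist from -2.86 to 1.58. Signal over background is unknown from the deposited values.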
